A study of Rattus norvegicus with 47 samples.

Results

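The miRNA content of urine was set against that of the kidney in the same Wistar rats, which had been fed a high-fat diet (HFD) or a standard diet (SD) for 10 weeks. Small RNA was sequenced from kidney tissue and from the cell-free and exosomal RNA of urine. Of 320 miRNA rows in the kidney table and 125 in the urine table, 123 carried the same identifier in both, and these shared rows are the members described here. They were compared in the 15 rats that had both libraries, 8 HFD and 7 SD, out of 47 samples in the series. The 123 rows hold 103 mature miRNA names, because 18 names have a row for each genomic copy, and rows after the first are called copy 2 and copy 3. The log2 differences of the copies of a name lie within 0.26 of each other. Their levels can differ, most for miR-92a-3p, which was at 438 to 1612 RPM in kidney, against 40.2 to 321 RPM for miR-92a-3p copy 2. Each library was scaled to a sum of 1000000 over its shared rows, and a level in this unit is written as RPM. A log2 difference is the urine minus the kidney value of log2(RPM + 100) within a rat. Within a rat, the added 100 pulls the difference of scarce miRNAs toward 0, so ratios of mean levels are also given. Urine libraries without a read can still lower the mean difference far beyond that ratio. For miR-9a-5p the difference was -1.10, although the mean level in urine was 0.88 times that in kidney.

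A mature miRNA is a short strand cut from a hairpin precursor that guides Argonaute proteins to messenger RNAs. Bases 2 to 8 from its 5′ end, the seed, decide most of its targets, and miRNAs with the same seed form a family. A hairpin can release a miRNA from its 5′ arm (5p), its 3′ arm (3p) or both. The renal tubule is known for miR-192, miR-194 and the miR-30 and miR-10 families, whereas the miR-200 family, miR-203 and miR-205 are typical of lining epithelia, among them the urothelium of the urinary tract. Urine takes up RNA from the nephron, from the urothelium and from other cells that shed or secrete into it.

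The sequences below belong to miRNAs that the comparison turns on, and show which of them share a seed, printed in capitals. They were read from RefSeq (GRCr8), which held 93 of the 103 names. The 93 sequences carry 67 distinct seeds, and 15 of the seeds are held by several names. The first lines are epithelial miRNAs, followed by let-7, miR-29, miR-30, and those lower in urine.
miR-200c-3p: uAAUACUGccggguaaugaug
miR-141-3p: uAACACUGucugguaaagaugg
miR-205: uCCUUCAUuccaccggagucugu
miR-203a-3p: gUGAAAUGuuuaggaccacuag
let-7a-5p: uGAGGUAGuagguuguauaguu
let-7d-5p: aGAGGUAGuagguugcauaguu
let-7i-5p: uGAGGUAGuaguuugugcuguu
let-7d-3p: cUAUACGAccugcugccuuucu
miR-29a-3p: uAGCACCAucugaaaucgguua
miR-29b-3p: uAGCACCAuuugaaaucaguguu
miR-30a-5p: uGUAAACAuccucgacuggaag
miR-30c-5p: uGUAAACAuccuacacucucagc
miR-143-3p: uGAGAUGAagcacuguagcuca
miR-146a-5p: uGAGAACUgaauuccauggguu
miR-146b-5p: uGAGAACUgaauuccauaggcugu
miR-101a-3p: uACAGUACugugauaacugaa
miR-101b-3p: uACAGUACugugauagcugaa
miR-10a-5p: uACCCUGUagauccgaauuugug
miR-10b-5p: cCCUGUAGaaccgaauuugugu
miR-200b-3p, miR-200a-3p, miR-429, miR-30d-5p, miR-320-3p and miR-328a-3p are named only.

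The libraries differed widely in depth. Shared miRNA reads numbered 5836 to 97365 in HFD urine and 533 to 4381 in SD urine, which do not overlap, so diet and urine depth cannot be told apart. The kidney libraries held 1095988 to 4977849. miRNA rows took 0.0806% to 1.39% of the assigned reads in urine and 32.9% to 59.7% in kidney. Up to 11 shared rows were without reads in an HFD urine library, up to 46 in an SD urine library and none in a kidney library. Urine and kidney RNA were isolated by different methods, so source and isolation cannot be told apart. The kidney libraries fell into 2 kinds that no label names, with a size factor (the authors' depth correction) above 1 in 7 rats (5 HFD and 2 SD) and below 1 in 8 rats (3 HFD and 5 SD). The levels of 52 of the 123 rows did not overlap between these kinds, so log2 differences and calls are also given within each. Shares of arms, pairs, families and lists are not split by kind. The kidney library of SD rat 1250 had 88.3% of its miRNA reads on shared rows, against 95.3% to 97.2% in the others, and 52 rows were called without this rat. The urine library of SD rat 1244 had the highest miRNA share, and 50 rows were called without it.

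Urine and kidney carried different miRNA profiles. By limma with the rat as a block, 58 of 123 rows (47.2%) differed at an adjusted p under 0.05 and an absolute log2 difference over 1, the rule for a call throughout. Of these, 36 (29.3%) were higher and 22 (17.9%) lower in urine, and they cover 49 mature names. The 197 miRNA rows found in the kidney table alone are outside this count. In such bulk samples fewer cells of a type and less RNA per cell cannot be told apart. The split depended on the scaling. With TMM factors, a scaling by the trimmed mean of the ratios between libraries, 57 rows were called, but 16 were higher and 41 lower in urine, and the median log2 difference over all rows was -0.50 in place of 0.29. Centring on the median of the rows gave 29 higher and 24 lower. All 22 lower calls and 16 of the 36 higher calls were also made with TMM factors. Because these factors moved the median down, keeping the lower calls is little support for them. The count tests edgeR and DESeq2 both made all 36 higher calls but only 14 of the 22 lower calls. Within the kinds of kidney library, 25 of the 58 calls were made in both with the same sign, 19 higher and 6 lower in urine, and 20 of the 25 also with TMM factors. A further 6 of the 58 had opposite signs in the kinds. The levels of 9 of the 123 rows did not overlap between the 15 urine and the 15 kidney libraries, with 6 above and 3 below the kidney. Under every alternative run, 16 of the 58 rows kept their call, 10 higher and 6 lower in urine.

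**Figure D1:**
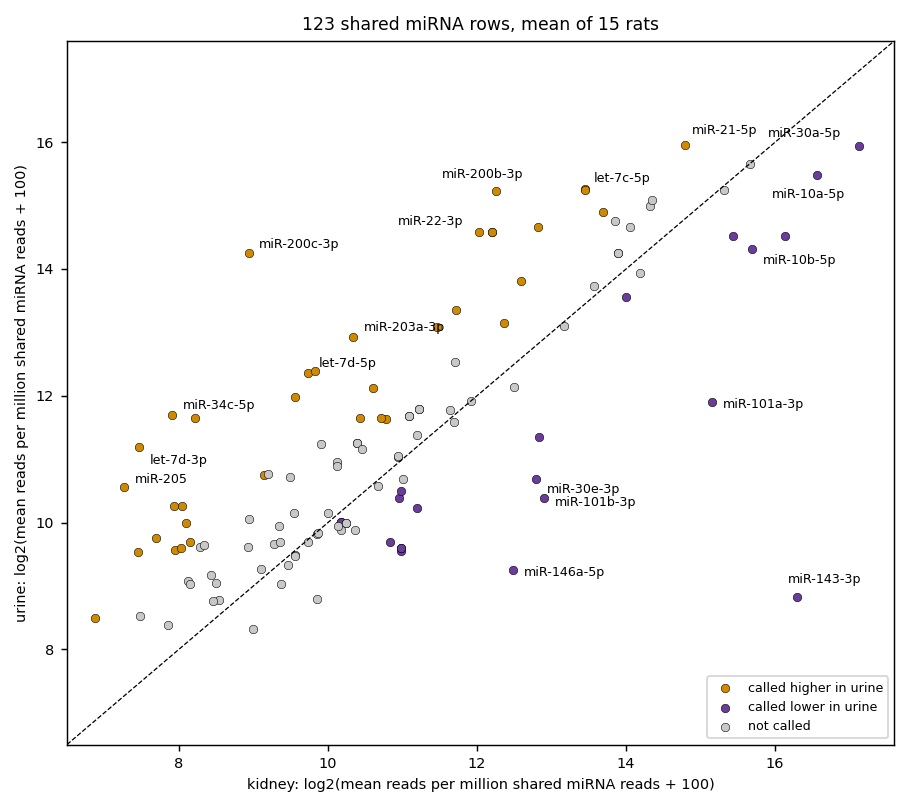
Mean level of each of the 123 shared miRNA rows in urine (y axis) and kidney (x axis) over 15 rats, as log2(RPM + 100), with equal levels on the dashed line. The 36 rows called higher in urine are orange and the 22 called lower are purple, and miR-143-3p lies farthest below the line.

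miR-200c and miR-200b, which keep epithelial cells in their state by repressing the ZEB factors, were among the miRNAs highest in urine over kidney. miR-200c-3p (Rnor6.0 chromosome 4, 157236790 to 157236810, minus strand) had a lowest, median and highest level of 917, 14424 and 120439 RPM in urine, against 76.5, 208 and 1208 RPM in kidney. It was higher in urine in all 15 rats, although the lowest urine library lay within the range of the kidneys. The log2 difference was 4.75 ± 0.48 (SE, n = 15 rats; limma, adjusted p = 2.5e-09). The mean level in urine was 49.8 times that in kidney and, without SD rat 1244, which held the highest level, 30.04 times. The difference was 6.39 in rats with kidney size factors below 1 and 2.88 in those above 1, called in both. miR-200b-3p (Rnor6.0 chromosome 5, 173490160 to 173490182, minus strand) stood at 7107, 30887 and 141107 RPM in urine and at 3204, 4231 and 8896 RPM in kidney. It too was higher in urine in all 15 rats, by 2.74 ± 0.30 (SE), and ranked 8 in urine and 32 in kidney.

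miR-205, a marker of stratified epithelium and urothelium, ranked 122 of 123 rows in kidney. Its levels (Rnor6.0 chromosome 13, 112233336 to 112233358, minus strand) were 0, 1370 and 4139 RPM in urine and 4.49, 17.4 and 256 RPM in kidney. All 8 HFD and 3 of 7 SD urine libraries held it, each above every kidney. In the other 4 SD urine libraries 3 reads equal 685 to 5629 RPM, more than any kidney level, so miR-205 was not detectable there at the level of the kidney. The log2 difference was 2.58 ± 0.42 (SE; limma, adjusted p = 5.7e-06), and the mean level in urine was 26.5 times that in kidney. miR-203a-3p, which promotes differentiation in stratified epithelia, was at 510.3, 6854 and 23876 RPM in urine and 911, 1037 and 3079 RPM in kidney. It was higher in urine in 14 of 15 rats, by 2.35 ± 0.34 (SE).

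Several miRNAs of the let-7 family, which accumulate in differentiated cells and repress growth regulators, were also higher in urine. let-7d-5p was at 1876, 4617 and 8902 RPM in urine and 247, 417 and 1961 RPM in kidney, a log2 difference of 2.74 ± 0.33 (SE) with the same sign in all 15 rats. let-7a-5p was at 8985, 19062 and 65798 RPM in urine and 3022, 4524 and 8289 RPM in kidney. These ranges did not overlap, and the log2 difference was 2.22 ± 0.30 (SE). let-7b-5p and let-7c-5p did not overlap either, with mean levels 3.62 and 3.54 times those of the kidney. With TMM factors their differences were 0.86 and 0.86 and were not called, whereas let-7a-5p and let-7d-5p were. let-7d-3p, from the other arm of the let-7d hairpin, was at 0, 1315 and 10959 RPM in urine and 19.95, 37.7 and 203 RPM in kidney. It was higher in urine in 14 of 15 rats, and its mean level was 28.9 times that of the kidney.

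Several miRNAs outside these families were higher in urine in all 15 rats. miR-22-3p was at 4455, 25087 and 58904 RPM in urine and 1993, 2964 and 18846 RPM in kidney, a log2 difference of 2.58 ± 0.32 (SE). miR-320-3p, whose precursor is known in mammals to bypass Drosha, was at 1406, 2981 and 13699 RPM in urine and 355, 607 and 1013 RPM in kidney, without overlap. miR-328a-3p was at 194, 1715 and 21918 RPM in urine and 98.5, 181 and 417 RPM in kidney. The mean level of miR-328a-3p in urine was 15.8 times that in kidney, and 9.26 times without SD rat 1249. All of these were called within both kinds of kidney library and with TMM factors.

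Other miRNAs were higher in most rats. miR-34c-5p, induced by p53 and abundant in ciliated epithelia, was at 0, 1021 and 11204 RPM in urine and 68.3, 137 and 208 RPM in kidney. It was higher in urine in 12 of 15 rats, and the other 3, all SD, had no read of it in urine. miR-21-5p, often raised in injured kidneys, had the highest mean level of all rows in urine. It was at 26027, 52658 and 125704 RPM in urine and 16541, 26083 and 48933 RPM in kidney, where it ranked 10. Its difference of 1.12 ± 0.24 (SE) was called over all 15 rats, but not with TMM factors (0.20) or in rats with kidney size factors below 1 (0.93).

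miR-143-3p, a miRNA of smooth muscle and other mesenchymal cells, showed the widest gap of all, in the opposite direction. It ranked 3 in kidney and 116 in urine. Its levels (Rnor6.0 chromosome 18, 56971297 to 56971318, minus strand) were 0, 264 and 1786 RPM in urine and 29677, 77485 and 115003 RPM in kidney. The 15 urine libraries held 96 reads of it in all, and 4 SD libraries held none. The log2 difference was -7.94 ± 0.33 (SE; limma, adjusted p = 3e-19), and the mean level in kidney was 226 times that in urine. Within the kinds of kidney library the difference was -7.93 below 1 and -7.94 above 1.

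miR-146a-5p, which restrains inflammatory NF-kB signalling, was lower in urine in all 15 rats. It stood at 0, 243 and 2293 RPM in urine and 1593, 4631 and 13878 RPM in kidney, a log2 difference of -3.66 ± 0.39 (SE). In 4 SD urine libraries no read of miR-146a-5p was found. There 3 reads equal 745 to 5629 RPM, which reaches above the lowest kidney level, so a lower level is not shown in each of them. miR-146b-5p, with the same seed, was at 0, 442 and 1876 RPM in urine and 196, 240.2 and 334 RPM in kidney and was not called (0.19 ± 0.39, SE). miR-101a-3p and miR-101b-3p, which share a seed and repress the methyltransferase EZH2 in human cells, were both lower in urine without overlap. miR-101a-3p was at 766, 3119 and 8356 RPM in urine and 18113, 35844 and 56624 RPM in kidney. miR-101b-3p was at 0, 1319 and 2772 RPM in urine and 3927, 6937 and 12166 RPM in kidney. For miR-101b-3p, 2 SD urine libraries held no read. There 3 reads equal 4110 and 5629 RPM, more than the lowest kidney level, so the lack of overlap is not certain in these libraries. Their log2 differences were -3.36 ± 0.27 and -2.97 ± 0.39 (SE).

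miR-30a-5p, the miRNA row with the highest mean level in kidney, ranked 2 in urine. It was at 4848, 56396 and 108991 RPM in urine and 58556, 140108 and 197800 RPM in kidney, and was lower in urine in 14 of 15 rats (-1.38 ± 0.27, SE). miR-10a-5p and miR-10b-5p, encoded in the Hox gene clusters, were lower in urine in all 15 rats. miR-10a-5p was at 26266, 39329 and 84989 RPM in urine and 51052, 99059 and 140433 RPM in kidney, and miR-10b-5p at 5359, 19178 and 32532 RPM in urine and 26438, 54029 and 65337 RPM in kidney. The differences were -1.09 ± 0.22 and -1.48 ± 0.24 (SE), and that of miR-10a-5p was not called in rats with kidney size factors below 1 (-0.88).

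**Figure D2:**
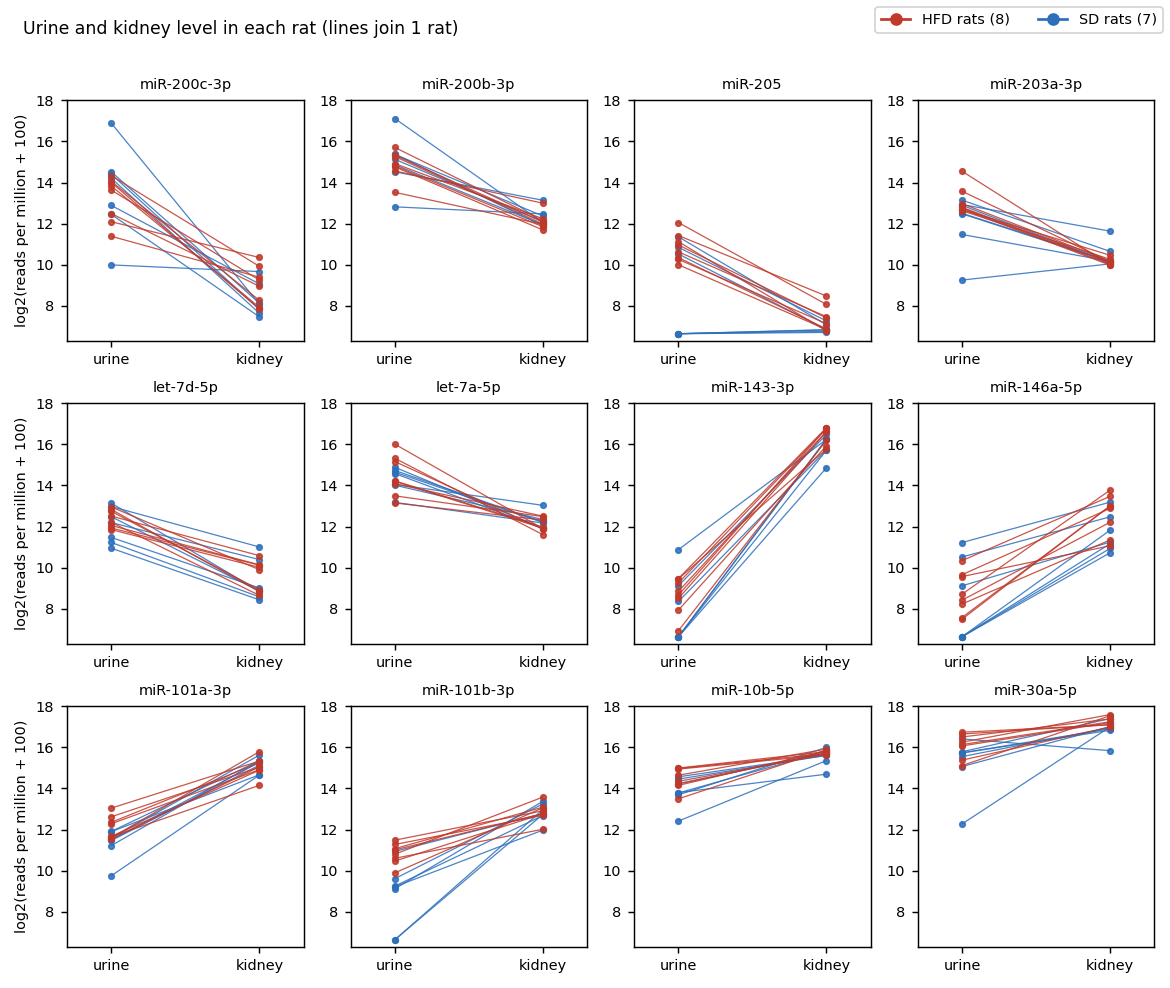
Level of 12 miRNAs in urine (left) and kidney (right) of each rat, as log2(RPM + 100), with a line for each of 8 HFD rats (red) and 7 SD rats (blue). In all 15 rats the urine end is the higher for miR-200c-3p and let-7d-5p and the lower for miR-143-3p and miR-101a-3p, and 4 SD rats lie at the floor for miR-205 in urine.

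**Figure D3:**
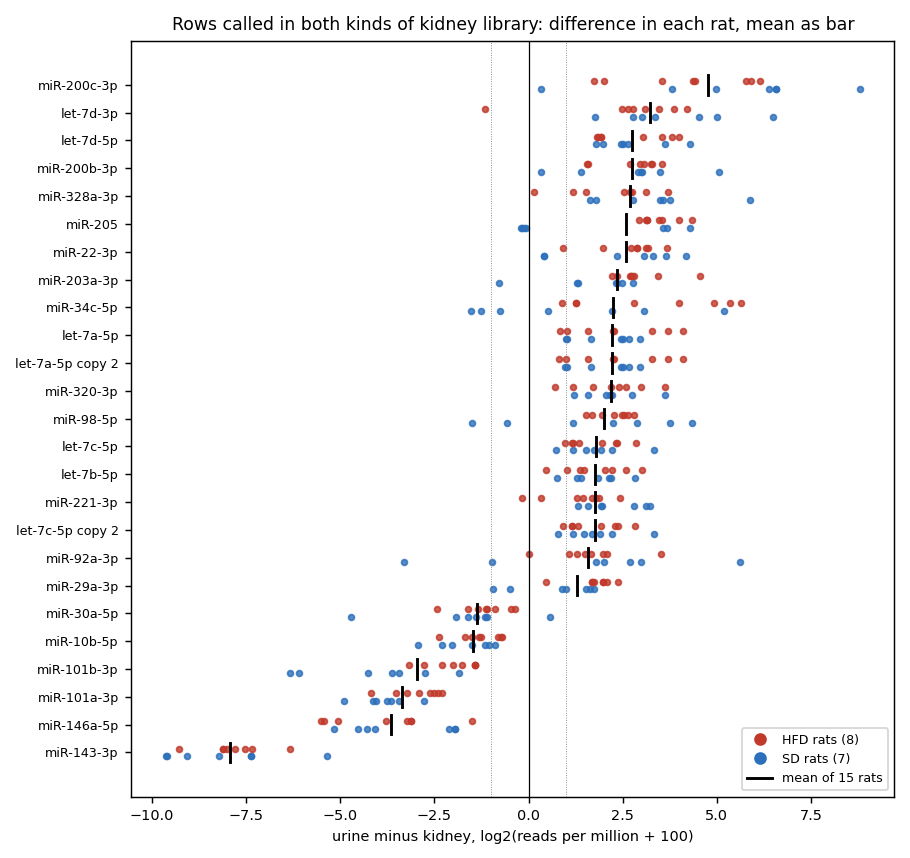
Urine minus kidney difference of log2(RPM + 100) in each of 8 HFD rats (red) and 7 SD rats (blue) for the 25 rows called in both kinds of kidney library, with the mean of 15 rats as a bar. The means of 19 rows are positive, up to 4.75 for miR-200c-3p, and those of 6 are negative, down to -7.94 for miR-143-3p.

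Grouped by the cells they are known from, the epithelial miRNAs were mostly higher in urine. All 10 urothelial and epithelial miRNAs listed were shared, of which 7 were higher, 0 lower and 3 not called, beside 29.3% of all 123 rows higher and 17.9% lower. Their median log2 difference was 1.5, beside 0.29 over all 123 rows. The 3 that were not called are miR-182, miR-183-5p and miR-96-5p, which form a genomic cluster, at -0.20, -0.04 and -0.57. With TMM factors miR-200b-3p, miR-200c-3p, miR-203a-3p and miR-205 kept the call, miR-200a-3p, miR-141-3p and miR-429 did not (0.26, 0.73 and 0.99), and miR-182 and miR-96-5p were called lower. The 10 together made up 10.7% ± 6.75 of the shared reads in urine and 2.57% ± 1.02 in kidney (SD, n = 15), and the sum was higher in urine in all 15 rats. The sums ran from 40119 to 326104 RPM in urine and from 17297 to 52174 RPM in kidney, so the ranges overlapped. miR-429 was called in rats with kidney size factors below 1 (3.29) and not in those above 1 (0.13). miR-200a-3p was likewise called below 1 (1.67) and not above 1 (0.62), and miR-141-3p above 1 (1.18) and not below 1 (1.17, adjusted p = 0.090 by limma).

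The tubule miRNAs were divided. Of 11 listed, 9 were shared. Of these, 5 were lower in urine (miR-30a-5p, miR-30e-5p, miR-10a-5p, miR-10b-5p and miR-192-5p), 2 were higher (miR-194-5p and miR-204-5p) and 2 were not called (miR-30c-5p and miR-30d-5p), beside 17.9% of all 123 rows lower and 29.3% higher. Neither miR-194-5p (0.66) nor miR-204-5p (0.82) was called with TMM factors, and miR-204-5p was not called in rats with kidney size factors below 1 (limma, adjusted p = 0.064). The median log2 difference of the 9 names, with the first row of each, was -1.003. Over all 123 rows, copies included, it was 0.29, so these medians differ in basis. Second rows of miR-30c-5p (0.38) and miR-194-5p (1.57) are left out of -1.003, and including them would make it positive. The 9 together made up 22.2% ± 5.49 of the shared reads in urine and 38.5% ± 3.93 in kidney (SD, n = 15), lower in urine in all 15 rats. miR-192-5p and miR-194-5p, which are made from common primary transcripts and enriched in kidney and gut, went opposite ways. miR-192-5p was at 2296, 18056 and 69464 RPM in urine and 12335, 49481 and 92154 RPM in kidney. miR-194-5p was at 1276, 10284 and 21456 RPM in urine and 695, 2452 and 12191 RPM in kidney. Both calls rested on rats with kidney size factors below 1, where the differences were -2.03 and 2.42, and neither was called above 1 (0.17 and 0.56). The call of miR-192-5p was lost without any 1 of 7 rats (1244, 1245, 1248, 1249, 1250, 1252 or 1274), and so was that of miR-30e-5p (1244, 1245, 1248, 1249, 1250, 1256 or 1259). miR-194-5p made up 8.55%, 30.4% and 62.5% of the sum of the pair in urine and 2.06%, 3.28% and 22.5% in kidney, a share that no scaling changes, and was higher in urine in 13 of 15 rats. The pair had as few as 14 reads in a urine library.

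Few members of the other lists were shared. miR-143-3p was the only shared 1 of 6 mesenchymal miRNAs, and miR-146a-5p and miR-146b-5p were the shared 2 of 7 leukocyte miRNAs. Of 4 muscle miRNAs, miR-499-5p was shared and not called (0.94 ± 0.45, SE). Of 2 neural miRNAs, miR-9a-5p was shared. Its 3 rows were called lower in urine (-1.14 to -1.10), but in neither kind of kidney library alone. Their mean levels in urine were 0.87 to 0.88 times those in kidney, and miR-9a-5p was higher in urine in 6 rats. The urine of rats 1245, 1248, 1249, 1250 and 1275 held no read of it. There 3 reads equal 685, 2801, 4110, 745 and 514 RPM, against 631, 1182, 820, 842 and 907 RPM in the kidney. A lower level is therefore not shown in rats 1245, 1248 and 1249. Without any 1 of rats 1244, 1245, 1248, 1249, 1250, 1255 and 1275 none of the 3 rows was called (differences from -1.13 to -0.91). The red blood cell, endothelial and liver miRNAs listed, such as miR-451-5p, miR-126a-3p and miR-122-5p, are not among the shared rows.

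Members of a seed family did not always differ alike. The let-7 and miR-98 family had 5 of 9 names higher in urine, 0 lower and 4 not called, beside 29.3% of all rows higher and 17.9% lower. It made up 17.1% ± 5.72 of the urine reads and 8.0% ± 2.10 of the kidney reads (SD, n = 15). Its differences ran from -0.17 for let-7i-5p to 2.74 for let-7d-5p. As a share of these 2, let-7d-5p was 9.60%, 29.7% and 61.9% in urine and 0.812%, 1.71% and 18.5% in kidney, higher in urine in 13 of 15 rats. Together the 2 had as few as 6 reads in a urine library. let-7i-5p was called lower in urine in rats with kidney size factors below 1 (-1.44) and higher in those above 1 (1.29).

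In the miR-29 family, which represses collagens, the members diverged. miR-29a-3p was higher in urine (1.29 ± 0.29, SE), miR-29b-3p was lower (-1.64 ± 0.41, SE), and miR-29c-3p was not called (-0.42 ± 0.42, SE). With TMM factors miR-29a-3p was not called (0.38), and in rats with kidney size factors below 1 miR-29b-3p was not (-0.90, against -2.49 above 1). miR-29a-3p made up 75.0%, 96.6% and 100% of the sum of miR-29a-3p and miR-29b-3p in urine and 56.1%, 75.7% and 93.3% in kidney. The share was higher in urine in 14 of 15 rats, but a urine library held as few as 2 reads of the pair. miR-29b-3p had no read in 2 SD urine libraries.

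The miR-30 family, abundant in tubule cells and podocytes, made up 12.2% ± 3.82 of the urine reads and 18.8% ± 3.21 of the kidney reads (SD, n = 15). Its 4 names ran from -1.38 for miR-30a-5p and -1.06 for miR-30e-5p to 0.38 for miR-30c-5p and 0.73 for miR-30d-5p, the last 2 not called. miR-30d-5p made up 12.9%, 25.5% and 92.7% of the sum of miR-30d-5p and miR-30a-5p in urine and 4.09%, 10.6% and 24.5% in kidney, higher in urine in 14 of 15 rats. miR-200c-3p was also higher relative to miR-200b-3p, a member of its own family. It made up 11.4%, 28.4% and 46.0% of the sum of the 2 in urine and 1.95%, 4.67% and 16.4% in kidney, higher in urine in all 15 rats. miR-10a-5p and miR-10b-5p, whose RefSeq sequences start at different bases and so have different seeds, stood in ratios whose ranges overlapped between the sources. miR-10a-5p made up 55.6%, 67.4% and 86.2% of the pair in urine and 57.2%, 65.9% and 71.2% in kidney.

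**Figure D4:**
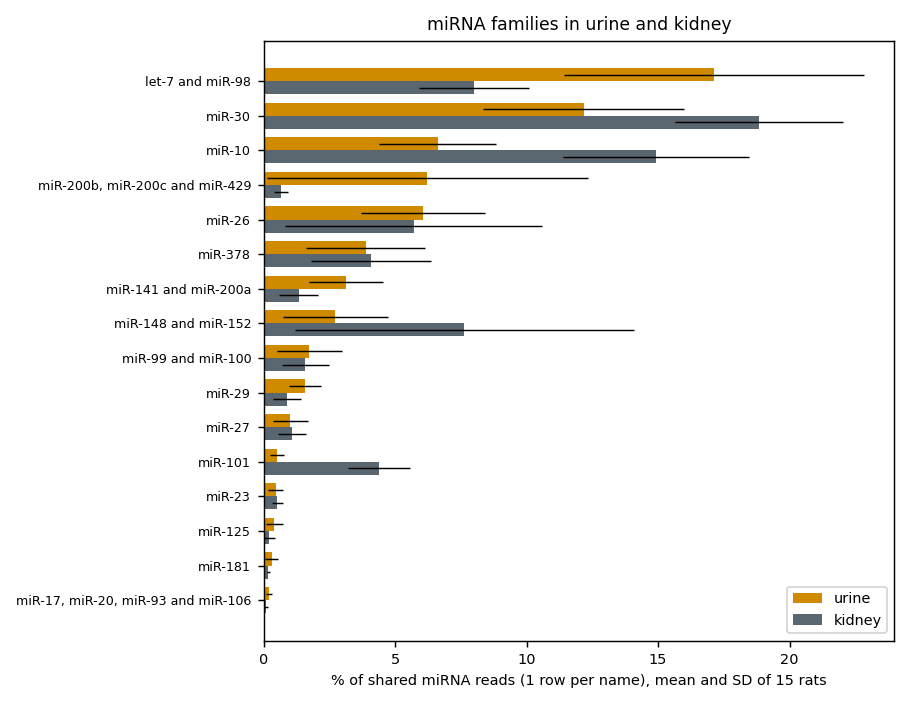
Share of shared miRNA reads (%) taken by miRNA families in urine and kidney, with 1 row per mature name, as the mean of 15 rats with the SD as error bar. The let-7 and miR-98 family takes 17.1% of urine reads, miR-30 takes 18.8% of kidney reads, and miR-200b, miR-200c and miR-429 together take 6.22% of urine and 0.663% of kidney reads.

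The balance of the arms of a hairpin differed for some miRNAs, among 10 hairpins with both arms shared. let-7d-5p made up 20%, 76.5% and 100% of the let-7d reads in urine and 88.5%, 90.6% and 94.6% in kidney, lower in urine in 14 of 15 rats. miR-200a-5p made up 0%, 1.36% and 25.0% of the miR-200a reads in urine and 0.921%, 14.2% and 17.4% in kidney, lower in urine in 13 of 15 rats. The kidney share of miR-200a-5p varied widely, with a mean of 8.96% ± 7.18 (SD, n = 15), and was not split by kind of kidney library. The urine shares rest on as few as 3 reads for let-7d and 8 for miR-200a in a library. For each of the other 8 hairpins the share went the same way in at most 11 rats.

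The reads were spread over more miRNAs in urine than in kidney. To hold 90% of the shared reads took 24 to 45 rows in urine, with a median of 39, and 26 to 43 rows in kidney, with a median of 31. The difference within a rat averaged 5.93 ± 5.69 rows (SD, n = 15), and was above 0 in 13 rats (exact permutation test by sign flips, two-sided, p = 0.0023). With every library thinned to 533 reads the difference was 8.27 rows. The 10 rows with the highest mean levels took 44.6% of urine and 64.4% of kidney reads, and 5 rows were among the 10 of both. In kidney the leading row was miR-30a-5p in 11 rats and miR-148a-3p in 4. In urine it was miR-30a-5p in 5 rats, miR-21-5p in 4, miR-26a-5p in 3, and miR-200b-3p, miR-30d-5p and miR-378a-3p in 1 each.

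Urine and kidney profiles of the same rat were compared with those of different rats. Over the 123 rows, the Spearman correlation of urine with the kidney of the same rat was 0.466 to 0.710 (median 0.655), and with the kidney of another rat 0.435 to 0.799 (median 0.640). It was 0.518 to 0.940 between the urine of different rats and 0.746 to 0.992 between their kidneys. These are descriptions over miRNAs that share a library. After centring each miRNA within source and diet, urine correlated with its own kidney at a mean rho of -0.0413 and with other kidneys of the same diet at 0.00216. The difference of -0.0434 did not pass a permutation test (100000 resamples, two-sided, p = 0.45). Without SD rat 1250 it was -0.0977 (permutation p = 0.061), and without SD rat 1251 -0.00925 (permutation p = 0.87), the ends of the range with 1 rat left out. Levels were not centred by kind of kidney library here, so differences between the kinds remain in this test.

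For single miRNAs, 0 of 123 rows had urine levels related to kidney levels over the 15 rats at an adjusted p under 0.05 (Spearman or Pearson, permutation tests with 100000 resamples, two-sided). At an unadjusted p under 0.05 there were 14 rows by Spearman and 10 by Pearson, and 54 of the 123 rho were positive. The smallest p belonged to let-7a-5p, with a rho of -0.74 (permutation p = 0.0019, adjusted p = 0.11) and an r of -0.56 (permutation p = 0.028, adjusted p = 0.43). Without the 2 rats with the farthest kidney levels its r was -0.63, and rho was -0.81 in HFD and -0.29 in SD rats. miR-205 had a rho of 0.74 (permutation p = 0.0027, adjusted p = 0.11) and an r of 0.59 (permutation p = 0.022, adjusted p = 0.43). Without the 2 farthest rats its r was 0.58, and rho was 0.57 in HFD and 0.87 in SD rats. By kind of kidney library its rho was 0.91 below 1 and 0.21 above 1. In 4 SD urine libraries, all from rats with kidneys below 1, no read of miR-205 was found. There 3 reads equal 685 to 5629 RPM, so the rho in SD rats and below 1 rest in part on ties at non-detection.

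The miRNAs that separated the kinds of kidney library had overlapping levels in the urine of the same rats. miR-148a-3p was at 78080 to 180477 RPM in the 8 kidneys below 1 and 5915 to 25423 RPM in the 7 above 1. miR-26a-5p was at 11070 to 17481 RPM in the 8 kidneys below 1 and 57247 to 117637 RPM in the 7 above 1. miR-16-5p was at 35.9 to 86.7 RPM in the 8 kidneys below 1 and 849.8 to 4034 RPM in the 7 above 1. In urine the ranges of all 123 rows overlapped between these rats. Few reads in SD urine widen such ranges, so the overlap does not show equal levels. Over the 52 rows apart in kidney, the median absolute log2 difference between the kinds was 1.51 in kidney and 0.51 in urine, and 20 of the 52 had the same sign in urine. These 52 rows were picked by their kidney levels, so a wider gap in kidney than in urine follows from that choice. The urine minus kidney difference of such rows therefore depends on the kind. It was 1.87 below 1 and -1.22 above 1 for miR-26a-5p, -1.15 and 1.09 for miR-378a-3p, and -2.71 and 0.46 for miR-148a-3p. All were called in their kind but the last. The call of miR-148a-3p over all rats (-1.23 ± 0.45, SE) was lost without SD rat 1245, 1248 or 1249 or HFD rat 1255.

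**Figure D5:**
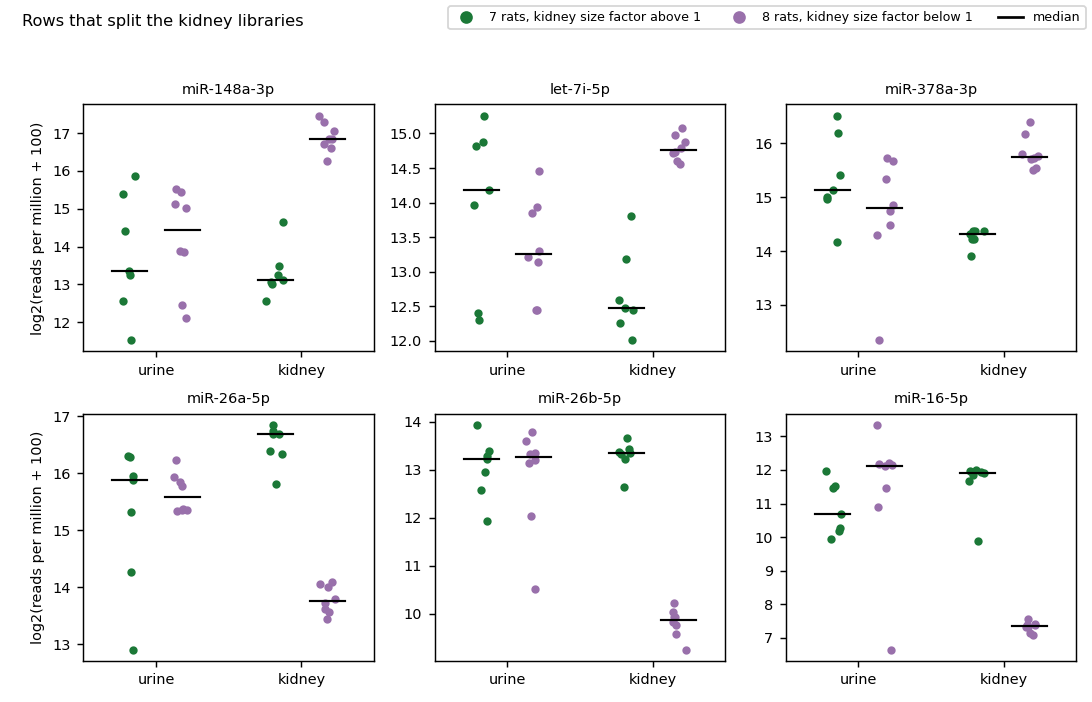
Level of 6 miRNAs, as log2(RPM + 100), in urine and kidney of the 7 rats with a kidney size factor above 1 and the 8 with a size factor below 1. In kidney the points of the kinds do not overlap in any panel, and in urine of the same rats they do.

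Whether diet changed the gap between urine and kidney was tested as the HFD minus SD difference of the log2 difference. By limma 0 of 123 rows (0%) were called, with 22 at an unadjusted p under 0.05. edgeR called 0 rows and DESeq2 called 1, miR-191a-5p. miR-218a-5p, which is encoded within the Slit genes, had the smallest p. Its urine minus kidney difference averaged -0.04 in HFD rats and -3.05 in SD rats, a diet difference of 3.01 ± 0.83 (SE; limma, adjusted p = 0.080), and 4 SD urine libraries held no read of it. These values are from its first row. In SD rat 1247, where 1 urine read equals 1876 RPM, the difference was -4.39 in this row and -0.10 in miR-218a-5p copy 2. The diet difference was 2.46 for miR-125b-5p, -2.26 for miR-191a-5p and 2.25 for miR-99a-5p, none of them called. Without SD rat 1251, 11 rows were called, 10 of them positive; without SD rat 1244 or HFD rat 1255, 2 rows were called, and without any other rat 0. Of the 58 calls between urine and kidney, 24 were made in HFD rats alone and in SD rats alone, 17 higher and 7 lower in urine.

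The mature strands were also compared by their letters. Over the 93 names with a sequence, the GC share correlated with the log2 difference at a Spearman rho of 0.0440 and the length at 0.133, as a description over miRNAs that share their libraries. The median GC share was 45.5% in the 25 names called higher in urine and 41.9% in the 16 called lower. It was 47.6% in the 52 names not called and 45.5% over all 93. GGAG and CCCU, motifs described in miRNAs sorted into exosomes of human cells, were searched on the mature strand only. GGAG was found in 8 of 93 names (8.60%), of which 1 was called higher and 1 lower. CCCU was found in 7 of 93 (7.53%), of which 2 were called higher and 2 lower. The first base was A in 6 of the 25 names called higher in urine and 0 of the 16 called lower, and C in 1 of the 25 and 4 of the 16, beside 19.4% and 18.3% of all 93 names, without a test.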

How the data were processed

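Small RNA of urine and kidney was compared in 15 rats with both libraries. The rat number in the labels marks the same animal and paired the libraries; after centring, those of the same rat did not correlate (mean rho -0.0413). The deposited signal values are reads that the authors divided by DESeq2 (1.24.0) size factors, after adapter removal with Cutadapt and mapping and counting with Subread on Rnor6.0. In every library 100% of values were whole multiples of 1 step within 0.01 of a read, which gave back reads and size factors. The 123 shared miRNA rows were scaled to their sum, and log2(RPM + 100) was fitted with limma (3.58.1, R 4.3.3, trended variance) with the rat as replicate block and no filter, and p-values were adjusted by Benjamini-Hochberg over all rows. Without the replicate block 53 rows were called.

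Alternatives were edgeR (4.0.16; 57 calls) and DESeq2 (1.42.0; 58 calls) on the recovered reads, pseudocounts of 10 and 500, filters on low values, other scalings, 1 row per name, subsets of rats and each rat left out. Thinning urine to 533 reads was added after seeing the data. Floors of 3 reads cover counting error only, since PCR reads are not independent molecules. Reads that match several copies of a miRNA may be counted at each.

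Named miRNAs were the 10 per direction with the largest difference among calls with 1 sign in all rats, the 10 highest in each source, members of the lists, urinary miRNAs the study names, and the 5 smallest p by diet and over rats; others were chosen after their values were seen. Members and lists were chosen with earlier results of these data known. The fits were tested on simulated data. The authors' comparison columns, the kidney mRNA table and rat 1246, which lacks a pair here, were not used.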

Additional observations from a re-analysis of the deposited data

Results flagged for a closer look

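Of 60 groups of 7 or 8 values searched for a value far from the rest, 6 held one, and chance gives about 1 in 20. In SD urine, rat 1244 needed 24 rows to hold 90% of its shared reads, against 37 to 45 in the other rats, and 1.39% of its assigned reads lay on miRNA rows, against 0.0806% to 0.252%. In SD kidney, rat 1250 needed 43 rows, against 28 to 34, and had 88.3% of its miRNA reads on shared rows, against 95.6% to 96.7%. In HFD kidney, rat 1271 had 95.3% of its miRNA reads on shared rows, against 96.4% to 97.2%. The urine minus kidney log2 difference of miR-29a-3p was 0.47 in HFD rat 1271, against 1.67 to 2.36 in the other HFD rats.

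The urine table holds 2 miRNA rows outside the shared set. Scaled to all miRNA reads of a library (a sum of 1000000), miR-184 averaged 1645 and miR-743a-3p 943 over the 15 urine libraries.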

How the results depend on the processing

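The 58 calls between urine and kidney became 38 with a pseudocount of 500 and 37 in SD rats alone, against 51 in HFD rats alone. They ran from 49 to 60 with 1 rat left out, and were 57 with edgeR (43 higher, 14 lower in urine) and 58 with DESeq2 (44 higher, 14 lower), both with the replicate block, 53 without the block and 54 in thinned urine (20 higher, 34 lower). The count of calls by diet, 0 in the reported fit, was 1 with DESeq2, 1 in rats with kidney size factors below 1 and 1 in thinned urine, and 0 to 11 with 1 rat left out. Among named miRNAs called in either fit, the sign turned in rats with kidney size factors above 1 for miR-26a-5p (-1.22), miR-378a-3p (1.09), miR-148a-3p (0.46), miR-192-5p (0.17), miR-218a-5p (0.028), miR-99a-5p (1.56) and miR-1843a-5p (1.19), and in thinned urine for miR-141-3p (-0.34). The cause of these changes was not tested. Of 1698 values for 54 named miRNAs under the other alternatives than thinning, 1547 stayed on their side of the threshold, 126 lost the call, 18 gained it and 7 turned sign with a call in either fit. In 97 of the 1547, from 19 miRNAs, the sign turned without a call in either fit. The difference in spread over miRNAs kept its sign with each rat left out (5.36 to 6.64 rows). Depth limits scarce miRNAs in SD urine, where 1 read equals 228 to 1876 RPM.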
